A study of Mus musculus with 2 samples.

Results

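The 10 genes described here form the core of the circadian clock: Clock, Arntl, Per1, Per2, Per3, Cry1, Cry2, Nr1d1, Nr1d2 and Dbp. They were taken by name from the GENCODE vM21 annotation of mm10, all 10 were found, and they were set against the 21951 protein-coding genes of that annotation. Accessibility was measured by DNase-seq, in which DNase I cuts open chromatin in nuclei and the cut sites are sequenced, in frontal cortex of male B6CASTF1/J mice aged 10 days, an F1 cross. The study has 1 group of 2 libraries, labelled biological replicates 1 and 2, with no treatment and no second condition. A label note gives 3 males per sample without saying whether they were pooled, and both samples carry the same donor entry. Nuclei were isolated from tissue by the linked protocol, and the labels used here give no hour of collection. Values of the libraries are given side by side, and their spread covers these samples alone and can be technical.

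The mammalian clock is a transcriptional loop. CLOCK and ARNTL (also called BMAL1) bind E-boxes as a pair and activate the Per and Cry genes, whose proteins return to the nucleus and repress that pair. The nuclear receptors NR1D1 and NR1D2 (REV-ERBs) close another loop by repressing Arntl through ROR elements, and DBP, itself an E-box target, acts on D-boxes. Most tissues, cortex included, run this loop, and the suprachiasmatic nucleus of the hypothalamus sets their phase.

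Every clock gene was open at its promoter in both libraries, and at 9 of 10 the strongest promoter peak passed the 90th percentile of all peaks in each library. A promoter peak is here a called peak within 1 kb of any annotated transcription start site (TSS) of the gene. All 10 met this in both libraries, against 55.1% of protein-coding genes. Peak strength is the deposited cleavage density of the strongest own-promoter peak, placed as a percentile among all peaks of its library. The strongest peak reached the 90th percentile in both libraries for 9 of the 10 clock genes, all but Clock, against 18.1% of protein-coding genes. That 18.1% is 3982 of all 21951 genes, those without a promoter peak included. More annotated starts give more sequence in which to find a peak, and neither contrast was adjusted for this. The median over the clock genes was 97.7 in replicate 1 and 98.5 in replicate 2. Among the 12088 protein-coding genes open at the promoter in both libraries the medians were 84.3 and 85.8. Because this is bulk tissue, a weaker peak from fewer cells of a type and one from less accessibility per cell cannot be told apart.

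The lists of the libraries differed in size. Replicate 1 had 39608 main-list peaks and replicate 2 had 45915, with 80.1% and 69.6% found in the other library by an overlap of at least 1 bp. Within a library the densities fell on whole multiples of one smallest step (100% of distinct values, tolerance 0.05 of a step). The step of replicate 1 was 1.64 times that of replicate 2. This would place replicate 2 deeper if density was scaled to the read total, which is not stated. The absolute depth is not known here. Of the cortical neuron markers reported here, Neurod2, Snap25 and Rbfox3 had a promoter peak in both libraries, Tbr1 and Neurod6 had one in replicate 2 only, and Slc17a7 had none in the main lists. Of the 15 markers of astrocytes, oligodendrocyte lineage, microglia and endothelium, 6 had one in both, namely Sox9, Slc1a3, Olig1, Olig2, Cx3cr1 and Flt1, while Gfap, Aqp4, Mog, Mbp, P2ry12, Aif1, Csf1r, Cldn5 and Pecam1 had none in the main lists. The peaks of Slc1a3, Cx3cr1 and Flt1 were weak, at percentile 8.48 to 16.9 in replicate 1 and 13.8 to 27 in replicate 2. Those of Sox9, Olig1 and Olig2 stood at 50.5 or above in both libraries. None of 6 suprachiasmatic nucleus genes (Vip, Avp, Six6, Lhx1, Prok2, Nms) and none of 6 genes of other tissues had a promoter peak in the main, larger or smaller read-derived list of either library. The share of each cell type in the peaks below was not tested.

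The sequences below are shown because each holds a clock motif that lay wholly inside a called footprint, a short protected stretch within open DNA, in both libraries. Each is the C57BL/6J reference (GRCm38.p6), written on the strand of its gene, with matches to the clock motifs in capitals, and the CAST allele of the cross may differ. The motifs searched on both strands were the E-box CACGTG, the E'-box CACGTT, the D-boxes TTATGTAA and TTACGTAA, the ROR element TAGGTCA and the cAMP response element (CRE) TGACGTCA. A match is a description of the letters only. The stretches are Per1 at chr11:69095020-69095119 (plus strand), Cry1 at chr10:85185062-85185161 (minus), Cry2 at chr2:92434183-92434282 (minus), and for Nr1d1, on the minus strand, its intron at chr11:98773869-98774164 and upstream sites at chr11:98783495-98783594 and chr11:98785897-98785996.
Per1 promoter: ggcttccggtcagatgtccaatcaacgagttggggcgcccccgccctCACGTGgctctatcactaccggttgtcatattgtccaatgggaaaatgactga
Cry1 promoter: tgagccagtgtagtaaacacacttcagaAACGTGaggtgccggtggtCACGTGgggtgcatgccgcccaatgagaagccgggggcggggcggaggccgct
Cry2 promoter: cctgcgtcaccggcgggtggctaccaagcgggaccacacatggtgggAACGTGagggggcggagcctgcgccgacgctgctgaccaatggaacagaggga
Nr1d1 intron: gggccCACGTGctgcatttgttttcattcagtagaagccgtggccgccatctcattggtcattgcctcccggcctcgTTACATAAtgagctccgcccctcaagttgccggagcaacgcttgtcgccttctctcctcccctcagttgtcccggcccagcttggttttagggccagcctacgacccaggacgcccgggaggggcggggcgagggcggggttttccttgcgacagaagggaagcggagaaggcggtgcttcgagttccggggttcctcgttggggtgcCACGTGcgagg
Nr1d1 upstream E-box: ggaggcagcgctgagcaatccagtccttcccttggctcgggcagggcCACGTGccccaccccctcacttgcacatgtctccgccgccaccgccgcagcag
Nr1d1 upstream CRE: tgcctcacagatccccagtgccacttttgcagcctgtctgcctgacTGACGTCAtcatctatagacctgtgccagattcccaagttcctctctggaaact

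Clock and Arntl encode the activating pair, and their promoters lay in the lower part of the set. The strongest Clock promoter peak (chr5:76304661-76304940 in replicate 1, at the annotated start) had a density of 4.72 in replicate 1 and 2.44 in replicate 2, at the 86th and 83.2nd percentile. It was the lowest of the 10 genes in both libraries. The start of a further annotated gene, Gm7467, overlaps this promoter, so the peak is not particular to Clock. Clock had 2 promoter peaks in replicate 1 and 3 in replicate 2, and no other peak in a span of 135 kb. The span is the gene body with 20 kb on each side. The promoter of Arntl (chr7:113207161-113207440, centred 165 bp before its TSS) had a density of 11.3 and 7.07, at percentile 97.3 and 97.1. Arntl also had a pair of weak intron peaks, found in both libraries, 9.58 and 9.93 kb past an internal TSS. Their densities were 1.98 and 1.53 in replicate 1 and 1.57 and 1.27 in replicate 2, near the middle of the lists. No ROR element, the letters through which the REV-ERBs act on Arntl, was matched in the shared peaks of Arntl, which says only that TAGGTCA is not written in those windows. The searched promoter peaks end at 113207440 and begin again at 113207681. The gene start at 113207465 lies between them and was not searched.

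The 3 Period genes encode the limiting partners of the repressor complex, and their promoters ranked 1, 4 and 9 among the 10 genes. Per1 was the strongest of all 10 genes in both libraries, with a promoter density (chr11:69094781-69095200) of 18.7 in replicate 1 and 19.1 in replicate 2, at percentile 99.7 and 100. Per2 (chr1:91459461-91459640) had 12.5 and 11.5, at percentile 98 and 99.5. Per3, a homologue that is not essential for the rhythm in mice, had 9.09 and 5.74, at percentile 95.3 in each library. The Per1 promoter peak held a pair of E-boxes, 332 and 148 bp before the TSS. The nearer one lay inside a footprint of 28 bp in replicate 1 and 25 bp in replicate 2, and the other touched footprints in both. A further Per1 peak at an internal TSS held an E-box that was inside a footprint in replicate 2 alone. No E-box or E'-box was matched in the shared promoter peaks of Per2 or Per3. The Per3 promoter instead held a pair of D-boxes, 154 and 201 bp before the TSS, of which the nearer touched a footprint in both libraries and neither lay wholly inside one. Only the replicate 1 intervals of shared peaks were searched. The upstream Per2 peak, from 91459461 in replicate 1 and 91459381 in replicate 2, stops short of the gene start at 91459324. Sequence between that peak and the Per2 start was therefore not searched, and the missing match does not cover it.

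The cryptochromes encode the other partners of the repressor complex. Cry1 (chr10:85185021-85185220) had a promoter density of 9.74 in replicate 1 and 6.5 in replicate 2, at percentile 96 and 96.4. Its E-box, 47 bp before the TSS, lay inside footprints of 13 and 19 bp, while an E'-box 66 bp before the TSS lay in none. Cry2 (chr2:92434041-92434320) had 12.2 and 9.35, at percentile 97.9 and 98.8. Its shared promoter peaks held no E-box but an E'-box 189 bp before the TSS, inside footprints of 32 and 30 bp. In the printed Cry1 and Cry2 sequences the E'-box reads AACGTG, the reverse complement.

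Nr1d1 and Nr1d2 encode the REV-ERB repressors, and Dbp an output activator with a PAR leucine zipper. Nr1d1 (chr11:98775261-98775520) had a promoter density of 14.5 in replicate 1 and 10.1 in replicate 2, at percentile 99 and 99.1. Nr1d2 (chr14:18239021-18239320) had 11.7 and 8.46, at percentile 97.6 and 98.3. Dbp (chr7:45704761-45705100) had 17.8 and 13.3, at percentile 99.7 in each library, and ranked next to Per1 in both. It also had 5 own-promoter peaks in replicate 1 and 6 in replicate 2, spread over 5 annotated starts, of which 5 were shared. A shared peak among them (chr7:45704112-45704435 in replicate 1) also lies within 1 kb of a Car11 TSS, so it is not particular to Dbp. In all, 8 of the 10 clock genes had more than 1 own-promoter peak shared by the libraries, against 19.1% of protein-coding genes, and the exceptions were Per3 and Nr1d1. Each annotated start adds to the window searched, and the clock genes had from 2 (Per2, Nr1d1) to 6 (Arntl, Per1). The contrast was not adjusted for this. A pair of E-boxes in Nr1d2, 439 and 484 bp past a TSS, touched footprints in both libraries without lying inside. The Dbp E-boxes and E'-box lay 2626, 2739 and 2688 bp into the gene, just before an internal TSS. One E-box of Dbp was inside a footprint in replicate 2, and the Dbp promoter held a ROR element 186 bp before the TSS in no footprint.

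**Figure D1:**
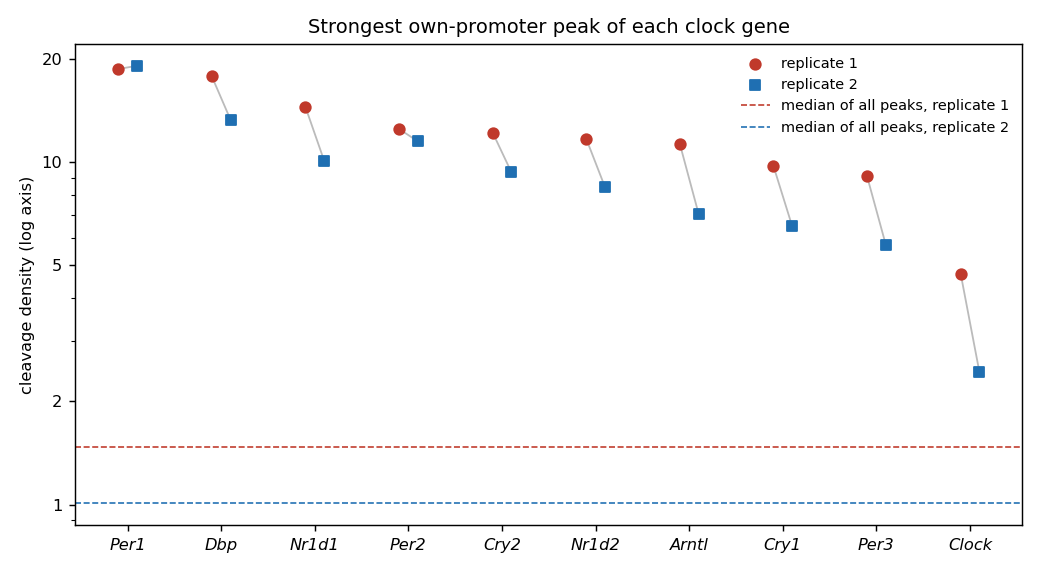
Cleavage density (log axis, in the deposited density unit) of the strongest own-promoter peak of each clock gene, ordered by mean percentile; circles are replicate 1, squares replicate 2, and dashed lines the median of all main-list peaks of each library (1.47 and 1.01). Every point lies above both medians, and Per1 is the only gene whose density is not lower in replicate 2.

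The order of the 10 promoters was nearly the same in both libraries. By mean percentile it ran Per1 (99.9 ± 0.168), Dbp (99.7 ± 0.0675), Nr1d1 (99 ± 0.0915), Per2 (98.7 ± 1.01), Cry2 (98.3 ± 0.607), Nr1d2 (97.9 ± 0.506), Arntl (97.2 ± 0.0911), Cry1 (96.2 ± 0.278), Per3 (95.3 ± 0.0134) and Clock (84.6 ± 1.98; SD, n = 2 each). Only Nr1d1 and Per2, ranked 3 and 4 in replicate 1, changed places in replicate 2. The percentile ranges of the libraries met between Per1 and Dbp, and between each gene and the next from Nr1d1 to Nr1d2, so these neighbours did not differ beyond their spread. Dbp and Nr1d1 did not overlap, nor did any neighbours from Nr1d2 down to Clock.

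Per1 and Per2 stood out in the ratio of the libraries. The strongest promoter density in replicate 2, divided by that in replicate 1, was 1.03 for Per1 and 0.92 for Per2. The other 8 clock genes had ratios of 0.517 (Clock) to 0.764 (Cry2). Over the 3982 protein-coding genes at or above the 90th percentile in both libraries the median was 0.663, and 5% had a ratio above 0.853. The Per1 ratio was at or above that of 99.6% of these genes and the Per2 ratio at or above 98.1%. With 1 library on each side the ratio has no replicate check, and both genes were singled out after their values were seen. The label gives no collection time or handling for either library, so what moves with this ratio was not tested.

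Around the promoters the 10 spans held 66 main-list peaks in replicate 1 and 77 in replicate 2. Peaks in own promoters numbered 25 and 31, peaks at the TSS of another gene 16 and 18, and distal peaks 25 and 28. Of these, 48 were shared: 72.7% of those in replicate 1 (95% Wilson interval 61 to 82, counting error only) and 62.3% of those in replicate 2 (51.2 to 72.3), against 80.1% and 69.6% of all peaks. Own-promoter peaks were shared in 23 of 25 cases in replicate 1, 92% (75 to 97.8), against 83.8% of all peaks at a TSS. In replicate 2 it was 23 of 31, 74.2% (56.8 to 86.3), against 80.8%. The interval of each library holds its background, so neither share differed from it beyond counting error. Distal peaks of replicate 1 were shared in 14 of 25 cases, 56% (37.1 to 73.3), against 76.2% of all distal peaks. This interval lies below the background, and 7 of the 11 peaks that were not shared lay at Nr1d1. Distal peaks of replicate 2 were shared in 14 of 28, 50% (32.6 to 67.4), against 59.9%, an interval that holds the background. Of the 18 replicate 1 peaks missing from the replicate 2 main list, 15 were present in another list of replicate 2, and of the 29 missing the other way, 13 were present in another list of replicate 1. Of the 8 replicate 2 own-promoter peaks among these, 7 were in no list of replicate 1.

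**Figure D2:**
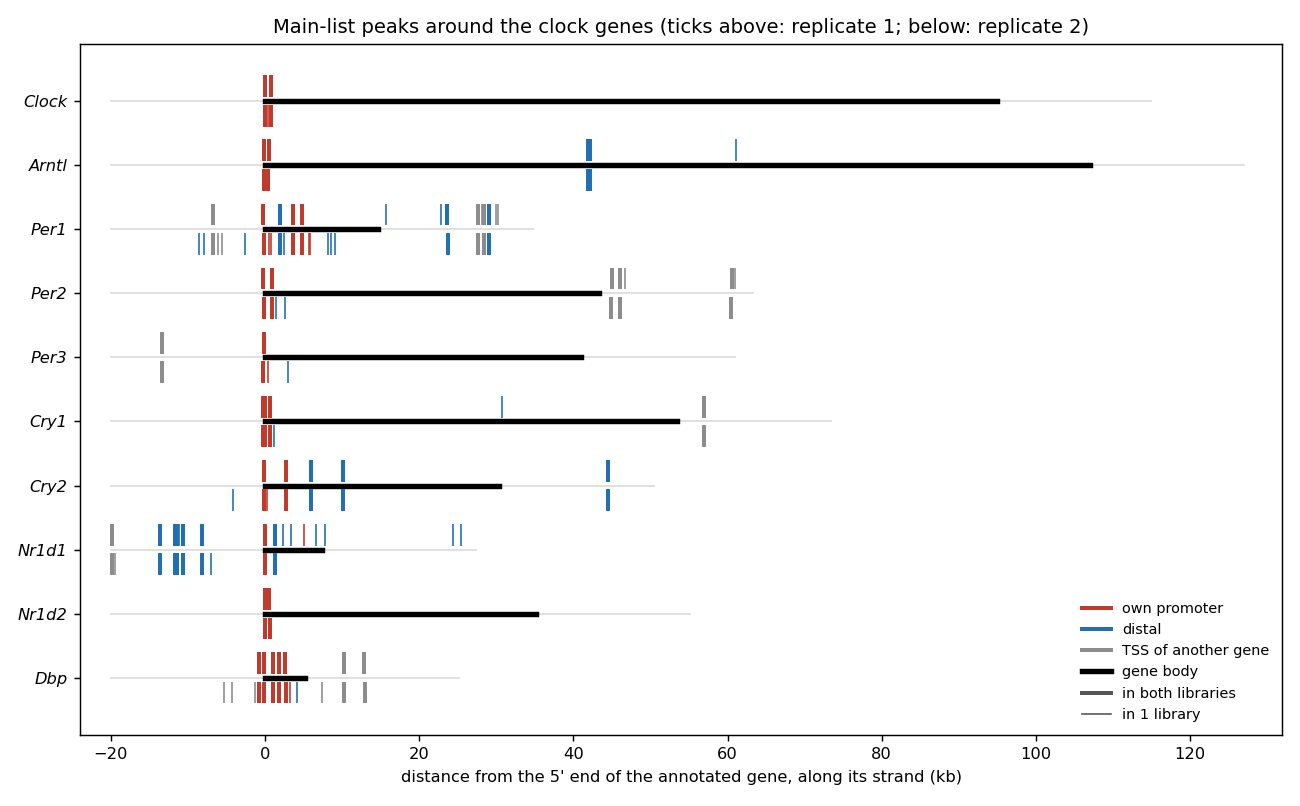
Main-list peaks around each clock gene by distance from the 5′ end of the gene along its strand (kb), replicate 1 above each gene line and replicate 2 below; the black bar is the gene body, the grey line the 20 kb on each side, and thick ticks mark peaks found in both libraries. Shared distal peaks (blue) appear only at Arntl, Per1, Cry2 and Nr1d1, with a row of them upstream of Nr1d1.

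Shared distal elements were found at 4 of the 10 clock genes, Arntl, Per1, Cry2 and Nr1d1, against 35% of protein-coding genes with a shared distal peak in their span. The share of clock genes is close to that background. By midpoint, 15 shared peaks lay over 1 kb from every TSS. One of them, in a Cry2 intron (chr2:92431268-92431459, 1029 bp from an internal TSS), reaches into the promoter window and is counted there above, which leaves 14. Nr1d1 with 6 and Cry2 with 4 had 4 or more of the 15, against 2.86% of protein-coding genes. The cutoff of 4 is the Cry2 count itself, so this contrast is a description only. Nr1d1 had the highest density of such peaks, 12.7 per 100 kb of span, against 5.68 for Cry2, 5.48 for Per1 and 1.36 for Arntl. The Cry2 count and density include the intron peak counted above as a promoter peak. Without it Cry2 had 3, and its place above Per1 rests on that peak. The number of shared distal peaks depends on the list, as given under the processing results.

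Nr1d1 had the most shared distal peaks of the set. Its strongest distal peak (chr11:98773861-98774220), in an Nr1d1 intron 1.29 kb past the TSS, had a density of 12.5 in replicate 1 and 10.5 in replicate 2. That is at percentile 98 and 99.2, and in replicate 2 slightly above the promoter itself. This peak holds the E-boxes 1177 and 1457 bp past the TSS printed above, both inside footprints in both libraries; the first was covered by 40 bp in each. The D-box between them lay inside a footprint in replicate 1 alone. The other 5 shared peaks were intergenic, 8.17, 10.6, 11.4, 11.7 and 13.7 kb upstream. The one at 8.17 kb had a density of 6.53 in replicate 1 and 8 in replicate 2, and its E-box lay inside footprints of 22 and 25 bp. The one at 10.6 kb had 3.55 and 3.58, and held the CRE inside footprints of 14 and 15 bp. Thra, which encodes a thyroid hormone receptor, overlaps the 3′ end of Nr1d1 on the opposite strand, and Msl1 starts at the upstream edge of the span, so the target of these peaks is not given by position.

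Per1 and Cry2 each had a strong distal peak, while those of Arntl were the weak pair given above. In Per1 an intron peak (chr11:69097021-69097180), 1.85 kb before an internal TSS, had a density of 7.23 in replicate 1 and 6.67 in replicate 2, at percentile 92.6 and 96.7. In the Cry2 span the strongest (chr2:92389341-92389640) had 7.09 and 5.05, but it lies in an intron of Mapk8ip1, 44553 bp from the Cry2 gene start. A Cry2 intron peak 8.46 kb past an internal TSS had 3.97 and 2.9 and held a pair of E-boxes, neither inside footprints of both libraries. That intron also belongs to the overlapping gene D930015M05Rik. Clock, Per2, Per3, Cry1, Nr1d2 and Dbp had no distal peak shared by the main lists.

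**Figure D3:**
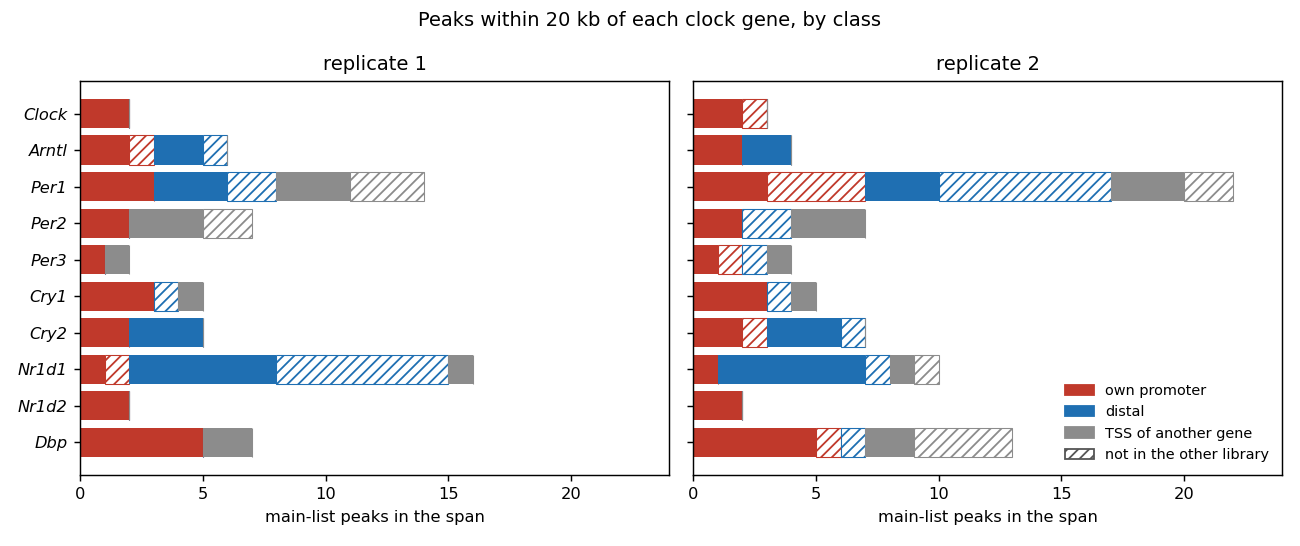
Main-list peaks per clock gene (bars start at 0) by class, replicate 1 on the left and replicate 2 on the right; hatched parts are peaks not found in the other library. Per1 has 14 peaks in replicate 1 and 22 in replicate 2, and Nr1d1 16 and 10. All of each difference is in peaks of 1 library.

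Per1 and Nr1d1 also differed most between the lists. Per1 had 14 main-list peaks in its span in replicate 1 and 22 in replicate 2, but 13 and 12 in the smaller read-derived lists. Nr1d1 had 16 and 10 in the main lists, but 16 and 26 in the read-derived ones. The per-base false discovery rate (FDR) from the alignments moved the same way as the main lists. Every main-list peak held a base with this FDR under 0.001, so it is no measure independent of those lists. In the promoter windows of Per1 29.6% of bases had an FDR under 0.05 in replicate 1 and 79.2% in replicate 2, and in those of Nr1d1 35.7% and 15.3%. The strongest promoter density of Nr1d1, by contrast, had a ratio of replicate 2 to replicate 1 of 0.698, close to the median of strong promoters. In the smaller read-derived lists all 10 clock genes again had a promoter peak in each library, against 57.9% of protein-coding genes. Counts of weak peaks at these 2 loci therefore depend on the list, and the part of the threshold in them was not tested.

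Peaks at the start of other genes made up 16 of the 66 in the spans in replicate 1 and 18 of 77 in replicate 2. They lay at Vamp2, 9130213A22Rik and Aloxe3 near Per1, Ilkap and Hes6 near Per2, Vamp3 near Per3, Mterf2 near Cry1, Msl1 near Nr1d1, and Car11, Rpl18 and Sphk2 near Dbp. The Vamp3 promoter, 13.4 kb upstream of Per3, had a density of 11.4 in replicate 1 and 6.67 in replicate 2, above the Per3 promoter in both. The pair of peaks at Rpl18 and Sphk2 near Dbp had 11.2 each in replicate 1 and 8.32 and 7.19 in replicate 2. These sites were left out of the counts of clock promoters. Peaks in an own-promoter window that also lie near another start, as at Clock and Dbp, were kept in those counts.

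Hotspots, wider enriched regions from the read-derived run, covered the promoters of all 10 clock genes in both libraries, against 63.3% of protein-coding genes. The highest −log10 FDR of a promoter hotspot was 111 in replicate 1 and 114 in replicate 2 at Dbp, which also had the widest promoter hotspot of the set, 2717 and 2823 bp. Clock was again the lowest, with 31.6 and 20.4. The other 8 ranged from 67.2 (Cry1) to 87.1 (Arntl) in replicate 1 and from 66.5 (Nr1d2) to 100.3 (Nr1d1) in replicate 2. All 9 genes other than Clock were at or above the 97.6th percentile of hotspots in both libraries, and Clock stood at 92.8 and 91.9. These percentiles are among all hotspots, those outside promoters included, and the strength of promoter hotspots of other genes is not given here. By this measure Per1, with 74.3 and 89.1, did not lead the set.

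Footprints were found in the promoter windows of all 10 clock genes in both libraries, against 59.5% of protein-coding genes. The windows held 152 footprints in replicate 1 and 175 in replicate 2. Of the replicate 1 footprints 75.7% (68.3 to 81.8) overlapped one of replicate 2, and 61.1% (53.8 to 68.1) the other way. Over all footprints, those outside promoters included, the shares were 55.6% and 40.7%. A share for footprints in the promoters of other genes was not computed. Dbp, with 32 and 39, and Per1, with 23 and 35, had the most promoter footprints, and Cry2, with 9 and 10, was among the fewest. Window sizes ran from 3652 bp at Cry2 to 8096 bp at Arntl, and the counts were not adjusted for them. Arntl had 11 footprints in each library. Over the whole spans there were 379 footprints in replicate 1, of which 238 were shared, and 461 in replicate 2. The clock promoters are also stronger peaks than most, and the part of peak strength in these shares was not tested.

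**Figure D4:**
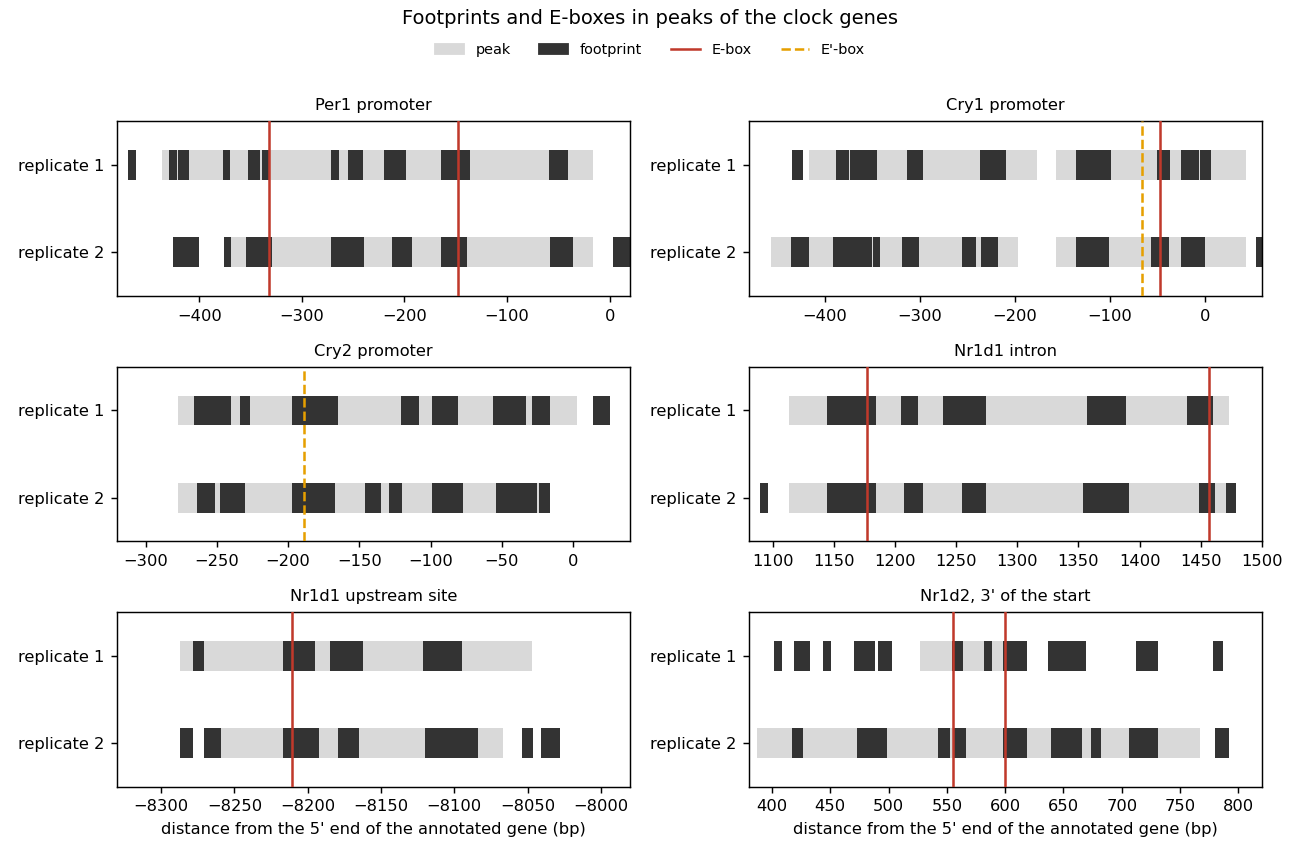
Peaks (light), footprints (dark) and matches to the E-box (solid line) and E'-box (dashed line) by distance from the 5′ end of the gene (bp), at promoters or distal sites of Per1, Cry1, Cry2, Nr1d1 and Nr1d2, replicate 1 above replicate 2 in each panel. The E-box 148 bp before the Per1 start, that 47 bp before the Cry1 start and the 3 Nr1d1 E-boxes shown lie inside footprints of both libraries, while the Nr1d2 E-boxes lie at footprint edges.

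E-boxes were written in a shared promoter peak of 4 of the 10 clock genes, Per1, Cry1, Nr1d2 and Dbp, against 7.74% of protein-coding genes. Per peak, 5 of the 23 shared own-promoter peaks of the clock genes held one, 21.7%, against 9.8% of 16004 shared promoter peaks of protein-coding genes, with median widths of 240 and 242 bp. The E'-box was likewise in 5 of 23, against 5.35%. For comparison the GC box GGGCGG, which is no clock motif, was in 16 of 23 peaks, 69.6%, against 62.7%. Among distal peaks, 4 of 14 held an E-box, 28.6%, against 5.37% of 14713 shared distal peaks, with median widths of 220 and 193 bp. Of the 4, 3 are Nr1d1 peaks and 1 is a Cry2 peak, so this share describes those loci rather than the set. Of the E-box matches in clock gene promoters 2 of 8 lay inside footprints of both libraries, 25%, against 15.5% of such matches in all promoter peaks. In distal peaks it was 3 of 6, 50%, against 9.39%, and all 3 are at Nr1d1. The clock genes are known E-box targets from work on other tissues, so they are no fresh sample for this motif, and the counts are too small to give more than a description.

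All 20 further clock genes searched, chosen by role, also had a promoter peak in both libraries, against 55.1% of protein-coding genes. Their median mean percentile was 77.5, below the 98.1 of the 10 core genes. It was also below the 84.9 of the 12088 protein-coding genes open at the promoter in each library. Among the kinases that mark PER proteins, Gsk3b was strongest, with a density of 25 in replicate 1 and 17.6 in replicate 2, above every core clock gene in replicate 1. Btrc, part of the ubiquitin ligase that targets PER, had 20.3 and 11.6. Tef, a D-box factor related to Dbp, had 16.3 and 12.2, and Ciart, a repressor acting at E-boxes, had 10 and 7.28. The ROR receptors, which oppose the REV-ERBs, were weaker, the strongest being Rorb with 2.47 and 1.66. Timeless had 2.45 and 1.59. The relatives of the activating pair were also weak. Npas2, which can stand in for Clock, had 1.26 and 1.11, and Arntl2 had 1.44 and 0.659.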

How the data were processed

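DNase-seq lists of both libraries were used as deposited, made per library on mm10. Per the deposited text lists, the authors made the main and larger peak lists, the per-base FDR and the footprints with p-values from filtered alignments, and hotspots and another pair of peak lists from sequencing reads. Callers, their versions and settings: not given in the sources used here. Density, as deposited, is a cleavage signal per peak, the authors' own value. The deposited hotspots carry the highest −log10 FDR, per the file headers. The footprint p-value deposited by the authors is 0.01 in every line and was not used as a measure. The peaks of the main lists all held a base with FDR under 0.001 and those of the larger lists under 0.05, as computed from the per-base FDR, which the deposited files list only under 0.05.

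Genes and TSSs came from GENCODE vM21 and sequence from RefSeq GRCm38.p6, with 0 peaks beyond its chromosome ends. Reads of an F1 cross mapped to this reference can favour its allele, which was not examined here. Spans were the gene body plus 20 kb on each side, promoters 1 kb on each side of any TSS, and peaks were shared at 1 bp of overlap. Peaks were classed by overlap with an own-promoter window, else by midpoint. Motifs were searched in the replicate 1 intervals of shared peaks. Computation used Python 3.11.15, numpy 2.4.6, pandas 2.3.3, pysam 0.24.0, scipy 1.17.1 and matplotlib 3.10.9. With 1 group there was no test between conditions. Overlap, percentile and motif routines were tested on simulated data, where 3463 of 3463 planted overlaps were recovered. The members, companion genes, motifs and markers were chosen with earlier results of these data known. Some cell type markers of the list are not reported here. All 10 clock genes are named, with their strongest promoter and distal peaks and the neighbours whose TSSs hold peaks, and per role the companion with the strongest promoter peak. For activators and partners both companions are named, since the stronger differed between libraries, and sequences are shown for shared own-promoter or distal peaks where a clock motif lay inside a footprint of both libraries, which leaves out peaks at the TSS of a neighbour. Alternatives were the other peak lists, equal list size, 50% overlap, windows of 500 and 2500 bp, flanks of 10 and 50 kb, protein-coding TSSs only, the further footprint lists of replicate 2 and each replicate left out.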

Additional observations from a re-analysis of the deposited data

How the results depend on the processing

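Of 85 alternatives, 72 stayed near the main value (a count within 1.5 times, a share within its interval, a percentile within 1 SD) and 13 moved beyond it. Promoter peaks, hotspots and footprints were found at all 10 clock genes under every alternative run, and promoter peaks at all 20 companions under all but the 500 bp window, which gave 19. Within that tolerance, shared own-promoter peaks ranged from 18 to 31 and the genes with an E-box from 3 to 5. The number of shared distal peaks moved most: the main value of 15 became 27 with the smaller list of the other run, 42 with its larger list, 35 with the larger list of the same run, 9 with a promoter window of 2500 bp and 9 with 10 kb on each side, and asking for 1 library only gave 26 to 29. The percent of replicate 1 peaks found in replicate 2 moved from 72.7 to 86.2 with the smaller and 87 with the larger list of the other run. Shared footprints in the spans moved from 238 to between 379 and 461 with 1 library only, by construction, since no second library then filters them. The median percentile of the strongest promoter peak moved from 98.1 to 98.8 with the larger list of the other run and 99 with that of the same run, against an SD of 0.557 between the library medians. Apart from the counts with 1 library, the cause was not tested. No paired analysis was possible because there is only 1 group. The absolute depth of the libraries is unknown, and replicate 2 is the deeper only if density was scaled to the read total. Peaks found in replicate 2 alone can reflect depth, which was not tested.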
